A study of Mus musculus with 14 samples.

Results

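The genes of transforming growth factor beta (TGF-beta) and bone morphogenetic protein (BMP) signaling were followed in a DNA methylation table of mouse mammary adipose tissue. Members were taken by name: every gene of the table whose symbol starts with Bmp, Gdf, Smad, Ltbp, Tgfb, Acvr, Inhb, Bmpr or Smurf, or is Nog, Chrd, Fst, Grem1, Eng, Ski or Skil. This gave 43 of the 12627 genes in the table and 362 of its 75761 cytosines. Reduced representation bisulfite sequencing (RRBS) had been run on 14 female C57BL/6N mice of wild-type genotype, of the substrain C57BL/6NCrl by the study's methods. RRBS cuts DNA at CCGG with MspI, keeps short fragments and reads, at each covered cytosine, the share of reads in which it was methylated. CON-LFD mice (n = 3) ate the control diet D12450J and were never made obese. DIO-HFD mice (n = 4) were made obese on the 60% high-fat diet D12492 and stayed on it. DIO-LFD mice (n = 3) were made obese in the same way and then moved to the low-fat diet, and DIO-VSG mice (n = 4) had vertical sleeve gastrectomy (VSG, removal of most of the stomach) as well as the low-fat diet. Every mouse without VSG had sham surgery. All mice were injected with E0771 mouse mammary cancer cells in the 4th mammary fat pad, 22 weeks after the first randomization, and the tissue measured was the contralateral 9th pad of these tumor-bearing mice. The labels list E0771 as the cell line of each sample, although the tissue is the pad that received no cells. DIO-VSG mice differed from DIO-HFD mice in both diet and surgery. The pad holds adipocytes, epithelium, vessels and immune cells together, so a change in the mix of cells and a change of methylation within a cell type cannot be told apart.

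Ligands of this family bind pairs of type I and type II receptor kinases, which phosphorylate receptor-regulated Smads that enter the nucleus with Smad4 and change transcription. TGF-beta ligands and activins signal mainly through Smad2 and Smad3, and BMPs and several GDFs through Smad1, Smad5 and Smad9. Latent TGF-beta binding proteins hold TGF-beta inactive in the matrix, secreted antagonists such as Noggin and follistatin trap BMPs and activins, and Smad6, Smad7, Smurf1, Ski and SnoN (Skil) restrain the signal inside the cell. In adipose tissue the family is known for its part in adipocyte commitment, brown fat formation and fibrosis. Methylation of CpG sites in a promoter often accompanies silencing, whereas methylation in a gene body has no fixed relation to expression. Expression was not analysed here.

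The 43 genes comprised 5 genes of TGF-beta ligands and latency with 91 sites, 6 BMP ligands with 42, 6 GDF ligands with 50, 2 activin and inhibin subunits with 14, 9 receptors and coreceptors with 34, 6 Smads with 61, 3 antagonists with 11, 3 intracellular regulators with 41 and 3 other matches of the names with 18. In mouse RefSeq, 67 genes match the names, and 24 of them have no site in the table: Acvr1c, Acvr2a, Bmp10, Bmp15, Bmp2k, Bmp4, Bmp5, Chrd, Eng, Gdf2, Gdf3, Gdf5, Gdf9, Grem1, Inhbc, Inhbe, Smad5, Smad9, Smurf2, Tgfb2, Tgfb3, Tgfbi, Tgfbr1 and Tgfbrap1. These were not analysed here. Of the 362 sites, 274 lay within the span of their gene and 88 outside it, 15 of them in another gene, since the table assigns a site to its nearest transcript start. By gene annotation of mm10, 107 sites were in coding exons, 116 in introns, 37 in untranslated regions and 14 in exons of noncoding transcripts. All 362 were at the C of a CpG and 158 lay within CCGG. Flags of the table mark 118 sites as promoter, 127 as CpG island and 85 as both. Tests took sites whose level had an SD of at least 0.05 over the mice, 308 of the members' and 65610 of the whole table, and 54 member sites fell below it. Bmp8a and Gdf10 kept no tested site. The sites just outside this limit, in Ski, Smad3 and Gdf7, had SDs of 4.97, 4.99 and 4.99 percentage points, and those just inside, in Smad3, Ltbp1 and Bmp7, had 5.01, 5.01 and 5.05.

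No read counts come with the levels, and depth is therefore unknown. The labels name the mice of a group only as replicates. DIO-HFD replicate 1 stood apart from the other DIO-HFD mice over the whole table, and the reason was not tested. Counts for each comparison with DIO-HFD mice are therefore given with and without it. It was left out because of its values in these same data. Defining markers of adipocytes, epithelium and lymphocytes had sites at 3, 6 and 6 of 8 genes each, and methylation does not report their expression. Averaged over these sites, the adipocyte list lay between 51.3% and 55.4% in the 4 groups. The epithelial list averaged 75.6% in DIO-HFD replicate 1 and 65.2%, 69.4% and 66% in DIO-HFD replicates 2 to 4, and its group means lay between 68.9% and 72.4%. DIO-LFD replicate 1, at 75.6%, and DIO-VSG replicate 2, at 74.9%, were about as high on it. The lymphocyte list averaged 70.2% in DIO-HFD replicate 1 and 58.4%, 59.4% and 61.8% in DIO-HFD replicates 2 to 4, and the part of these cells in the results was not tested.

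Each level was turned into M, the log2 of the methylated over the unmethylated share with an offset of 0.01 on each, and limma was fitted to all 4 groups over the 65610 sites, with Benjamini-Hochberg adjustment over all of them. No member site passed an adjusted p of 0.05 in any of the 4 comparisons with all 14 mice, against 0% of all tested sites for CON-LFD vs. DIO-HFD and 0.00305% in each of the other 3. At an unadjusted p under 0.05, member sites more often lay above DIO-HFD mice than below. Between CON-LFD and DIO-HFD mice, 30 member sites were higher in CON-LFD (9.74%, against 6.00% of all tested sites) and 3 were lower (0.974%, against 1.76%). Between DIO-LFD and DIO-HFD mice, 35 were higher in DIO-LFD (11.4%, against 7.92%) and 7 were lower (2.27%, against 2.16%). Between DIO-VSG and DIO-HFD mice, 84 were higher in DIO-VSG (27.3%, against 20.2%) and 11 were lower (3.57%, against 4.85%). Of the higher sites in CON-LFD, DIO-LFD and DIO-VSG mice, Ltbp3 held 9, 11 and 22 and Ski 6, 8 and 19. The excess of higher sites over the table thus rested largely on Ltbp3 and Ski. The median M difference of the member sites was 0.33, 0.36 and 0.57 in these comparisons, and 0.29, 0.30 and 0.48 over all tested sites. The smallest adjusted p of a member site against DIO-HFD was 0.611 (CON-LFD), 0.494 (DIO-LFD) and 0.150 (DIO-VSG), and it was 0.189 for DIO-VSG vs. DIO-LFD (limma with Benjamini-Hochberg adjustment). The 3 comparisons with DIO-HFD mice share the same 4 DIO-HFD mice and are not independent of each other.

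Without DIO-HFD replicate 1, 45 member sites passed an adjusted p of 0.05 for CON-LFD (14.6%, against 12.0% of all tested sites), 57 for DIO-LFD (18.5%, against 14.6%) and 121 for DIO-VSG (39.3%, against 34.4%). Of these, 44, 54 and 113 were higher than in the DIO-HFD mice, and 34 sites were higher or lower in all 3. Centring every mouse on its median M set the median difference of all sites to about 0, and the counts at an unadjusted p under 0.05 were then 21 higher and 11 lower for CON-LFD, 29 and 15 for DIO-LFD and 30 and 33 for DIO-VSG. Centring itself moves the split between higher and lower sites towards even. The bars of the share of sites at an unadjusted p under 0.05 set the members beside the table under these settings.

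**Figure D1:**
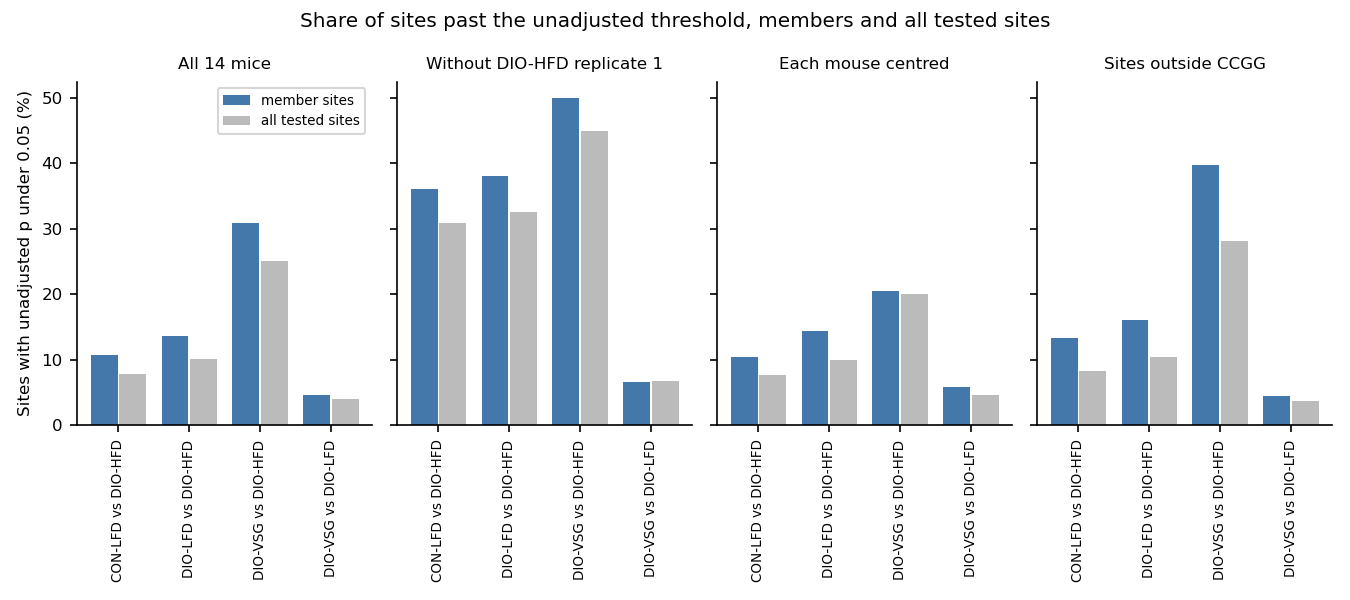
Percent of tested sites with an unadjusted limma p under 0.05 (vertical axis, from 0) for the member genes and for all sites of the table, in the 4 comparisons, in panels for all 14 mice, without DIO-HFD replicate 1, with each mouse centred on its median, and at sites outside CCGG. With all mice the members reach 10.7%, 13.6% and 30.8% against DIO-HFD where all sites reach 7.76%, 10.1% and 25.0%, and both rise above 30% in these comparisons without DIO-HFD replicate 1.

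Sites of one gene share fragments, so the tested sites of each gene were also averaged into a promoter value and a value for sites elsewhere, giving 63 member gene regions of 14163 in the table. None passed an adjusted p of 0.05 in any comparison (limma with Benjamini-Hochberg adjustment, against 0% of all gene regions in each of the 4), and the smallest adjusted p was 0.590, 0.516, 0.138 and 0.950 in the order above. At an unadjusted p under 0.05, 5 member regions were higher and 0 lower in CON-LFD than in DIO-HFD mice, against 7.10% and 1.00% of all regions, where 5 of 63 is 7.94%. In DIO-LFD mice 6 were higher and 1 lower (against 7.86% and 1.64%), and in DIO-VSG mice 15 were higher and 3 lower (against 22.9% and 3.69%). Leaving out DIO-HFD replicate 1, 12, 9 and 20 member regions passed an adjusted p of 0.05 for CON-LFD, DIO-LFD and DIO-VSG, against 14.5%, 15.0% and 33.4% of all regions. By gene region the members were therefore close to the table as a whole. The heat map of gene regions shows how unevenly the roles took part.

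**Figure D2:**
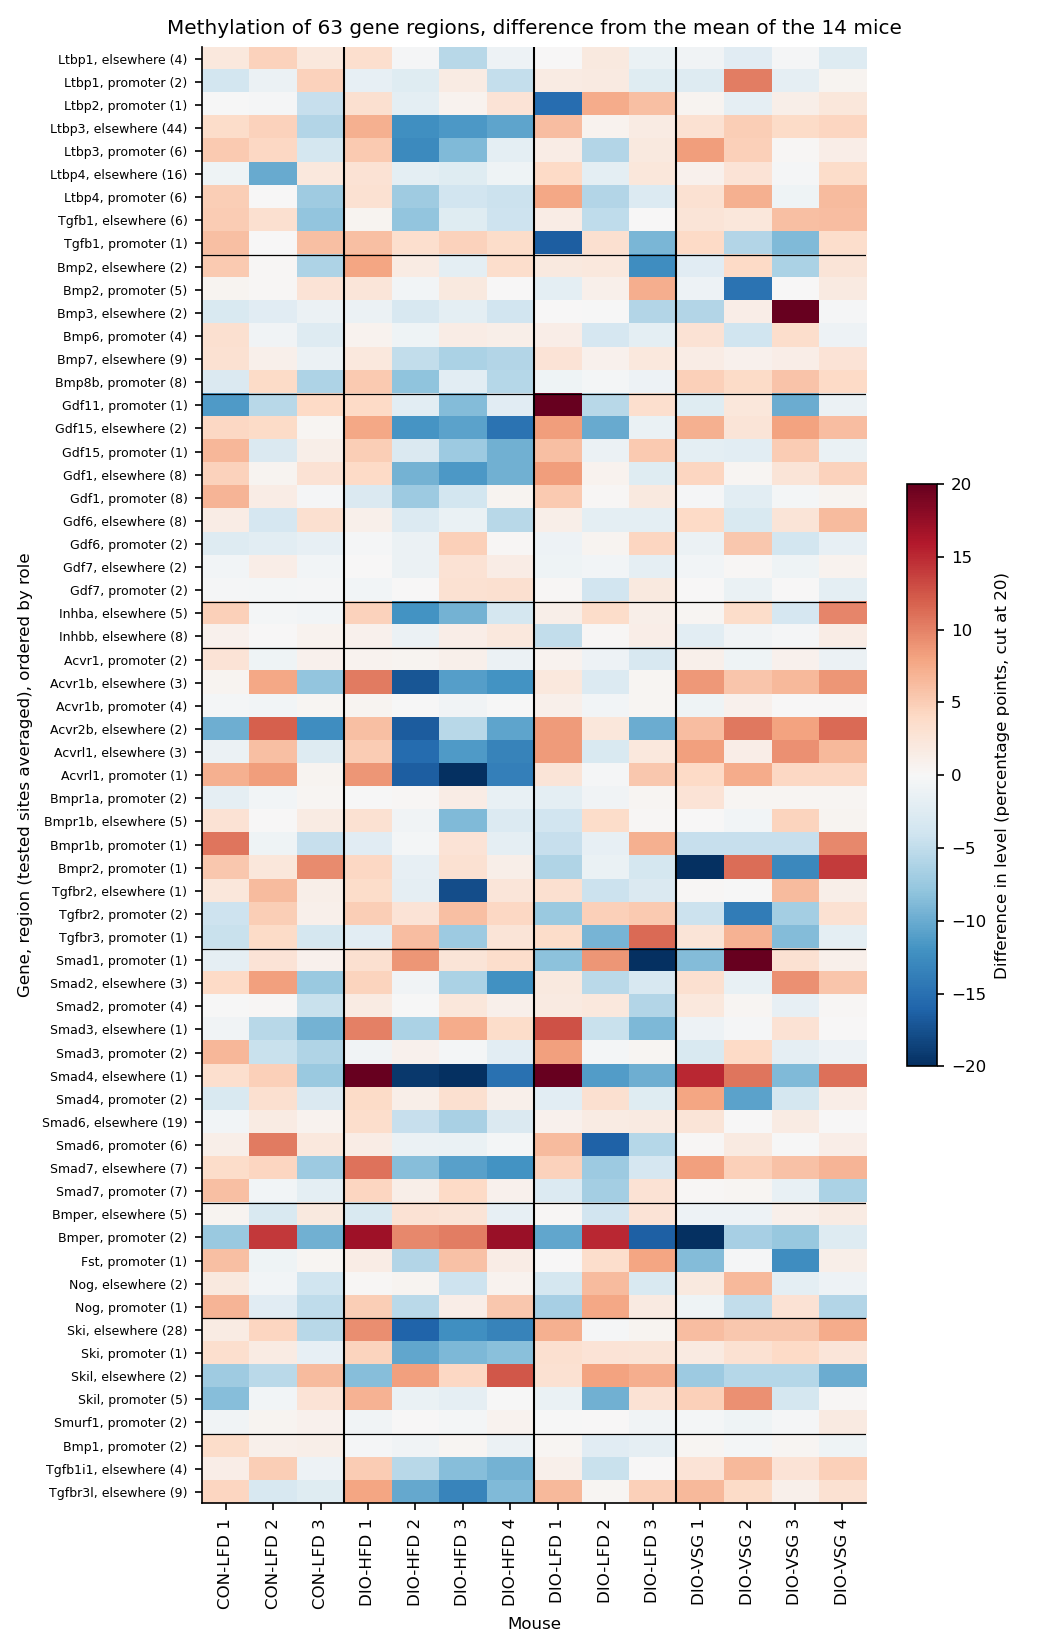
Heat map of the 63 member gene regions (rows, grouped by role, with the number of tested sites in brackets) in the 14 mice (columns, by group), colored by the difference of the level from the mean of the 14 mice in percentage points, cut at 20. The rows of Ski, Ltbp3 elsewhere, Acvrl1, Gdf1 and Smad7 elsewhere are low in DIO-HFD replicates 2 to 4, where DIO-HFD replicate 1 has the colors of the other groups, and the promoter rows of Smurf1, Acvr1b and Bmpr1a barely vary. These promoter rows average both ends of MspI fragments whose ends summed to 90% to 110% in all 14 mice. Such an average cannot show a difference.

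The ligand and latency genes of TGF-beta held the most sites, and 50 of their 86 tested sites belonged to Ltbp3, the latent TGF-beta binding protein 3. Ltbp3 lies at chr19:5740904-5758532 on the + strand of mm10, and 33 of its 51 sites are in coding exons. Relative to DIO-HFD mice, the M difference was positive at 43 of the 50 tested Ltbp3 sites in CON-LFD, at 45 in DIO-LFD and at 45 in DIO-VSG mice. The median differences in level were 8.13, 8.42 and 11.4 percentage points. By the unadjusted threshold of 0.05, 9, 11 and 22 of the sites were higher and 0 lower. Over the 44 Ltbp3 sites outside the promoter, CON-LFD mice averaged 75.3%, 76.3% and 65.8%, and DIO-HFD mice 78.7%, 59.4%, 60.2% and 61.1%. DIO-LFD mice averaged 77.8%, 72.4% and 73.2% there, and DIO-VSG mice 74.8%, 76.5%, 75.4% and 76.0%. DIO-HFD replicate 1 was thus the highest of the 14 mice and the other DIO-HFD mice were the lowest 3. The M difference from DIO-HFD mice was 0.48 in CON-LFD, 0.61 in DIO-LFD and 0.70 in DIO-VSG mice. Adjusted p-values by limma with Benjamini-Hochberg adjustment were 0.615, 0.519 and 0.158. Leaving out DIO-HFD replicate 1 made these adjusted p-values 0.0250, 0.0148 and 0.00243. Single Ltbp3 sites followed the same order, with 15, 21 and 34 of 50 higher at an adjusted p under 0.05 without DIO-HFD replicate 1, and 14 of them in all 3 comparisons. Of all tested sites, 12.0%, 14.6% and 34.4% passed in either direction.

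Sites that led the comparisons fell in a stretch of Ltbp3 that spans an intron between coding exons, 10152 to 10298 bp from the transcript start. It is shown because 3 of the 5 leading sites between DIO-LFD and DIO-HFD mice, by smallest p, counting all members, lie in it. The stretch is chr19:5751048-5751207 on the + strand of mm10, and the capitals mark the 8 of its 9 CpGs that were measured.
Ltbp3 exons and intron: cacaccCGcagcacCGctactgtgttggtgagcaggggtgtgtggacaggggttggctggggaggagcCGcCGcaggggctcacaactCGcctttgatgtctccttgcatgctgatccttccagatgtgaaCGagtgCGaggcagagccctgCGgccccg
At chr19:5751062, a coding exon CpG in this stretch, the level was 89.3%, 86.1% and 80.5% in CON-LFD mice and 80.4%, 70.8%, 63.9% and 66.3% in DIO-HFD mice. It was 91.4%, 91.4% and 81.7% in DIO-LFD mice and 86.2%, 84.6%, 87.2% and 85.3% in DIO-VSG mice. Every mouse of the other groups lay above every DIO-HFD mouse, by as little as 80.5% against 80.4%. The M difference was 1.25 (SE 0.39) in CON-LFD, 1.62 (SE 0.39) in DIO-LFD and 1.27 (SE 0.36) in DIO-VSG mice. Adjusted p-values by limma with Benjamini-Hochberg adjustment were 0.611, 0.494 and 0.150. With DIO-HFD replicate 1 left out the adjusted p was 0.0255, 0.0115 and 0.00622. Averaged over the 8 measured CpGs, CON-LFD mice had 83.1%, 78.7% and 69.6%, DIO-HFD mice 76.3%, 62.0%, 54.7% and 58.1%, DIO-LFD mice 84.2%, 83.8% and 75.2%, and DIO-VSG mice 79.6%, 79.9%, 80.5% and 74.7%. DIO-HFD replicates 2 to 4 were thus the lowest mice on this average, and DIO-HFD replicate 1 overlapped all the other groups. Nearer the start, at chr19:5740952, 50 bp into the gene, the level was 85.7%, 85.2% and 82.6% in CON-LFD and 82.8%, 69.7%, 62.2% and 69.0% in DIO-HFD mice (M difference 1.08, SE 0.37). At the coding exon site chr19:5745484, DIO-VSG mice had 84.9%, 87.6%, 86.6% and 91.3% and DIO-HFD mice 84.0%, 57.9%, 65.8% and 69.7% (M difference 1.53, SE 0.40).

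Ltbp4, a latent TGF-beta binding protein needed for elastic fibers, had 22 tested sites. Of these, 2, 3 and 5 were higher and 0 lower in CON-LFD, DIO-LFD and DIO-VSG mice at an adjusted p under 0.05 without DIO-HFD replicate 1 (limma with Benjamini-Hochberg adjustment). The shares of all tested sites passing in either direction were 12.0%, 14.6% and 34.4%, and Ltbp4 stayed below them in each comparison. Over its 16 sites outside the promoter the groups averaged 48.3% ± 6.38 (SD, n = 3) in CON-LFD, 50.7% ± 2.42 (SD, n = 4) in DIO-HFD and 52.7% ± 3.04 (SD, n = 3) in DIO-LFD mice, with DIO-VSG mice at 53.0% ± 1.76 (SD, n = 4). With all mice the adjusted p of this average by limma over gene regions was 0.785, 0.793 and 0.617. Without DIO-HFD replicate 1 it was 0.837, 0.526 and 0.391. Its 6 promoter sites averaged 42.1%, 32.0%, 35.2% and 34.8% in DIO-HFD and 42.1%, 46.1%, 38.2% and 45.4% in DIO-VSG mice (M difference 0.41, SE 0.22, adjusted p = 0.0900 without DIO-HFD replicate 1 by the same fit). One of its sites had the smallest p of all member sites between CON-LFD and DIO-HFD mice. At this coding exon site within CCGG, chr7:27325199, all 3 CON-LFD mice were at 100% and DIO-HFD mice at 89.7%, 96.8%, 94.4% and 93.8% (M difference 2.88, SE 0.71, adjusted p = 0.611 by limma with Benjamini-Hochberg adjustment). DIO-LFD mice were at 93.5%, 57.1% and 95.0% and DIO-VSG mice at 88.2%, 90.5%, 80% and 82.6%. M magnifies differences close to 100%, and in percentage points the DIO-HFD mice lay closer to CON-LFD mice than the DIO-VSG mice did. In Tgfb1, which codes the TGF-beta 1 ligand, the 1 promoter site was at 100%, 97.3%, 98.5% and 97.6% in DIO-HFD mice and at 77.4%, 97.1% and 84.7% in DIO-LFD mice. These groups did not overlap (M difference -2.46, SE 0.95, adjusted p = 0.516 by limma with Benjamini-Hochberg adjustment over gene regions). Over the 4 sites of Ltbp1 outside the promoter, CON-LFD mice averaged 97.2% ± 1.45 (SD, n = 3) and DIO-HFD mice 93.4% ± 3.67 (SD, n = 4), an M difference of 0.99.

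Among the BMP ligands, Bmp7, a ligand known for promoting brown adipocyte formation, had a site upstream of its start where DIO-HFD mice stood below the other groups. At chr2:172942198, 1878 bp upstream of the Bmp7 start and outside the gene, CON-LFD mice were at 92.5%, 88.6% and 93.3% and DIO-HFD mice at 87.7%, 87.1%, 73.6% and 79.8%. DIO-LFD mice were at 89.9%, 88.5% and 91.5% and DIO-VSG mice at 94.3%, 90.1%, 91.3% and 90.1%. No mouse of the other 3 groups overlapped the DIO-HFD mice. M differed by 1.11 in CON-LFD, 0.86 in DIO-LFD and 1.1 in DIO-VSG mice. The adjusted p by limma with Benjamini-Hochberg adjustment was 0.611, 0.494 and 0.150 with all mice, and 0.0401, 0.0695 and 0.0133 without DIO-HFD replicate 1. Over its 9 tested sites, all counted outside the promoter, Bmp7 averaged 71.9% ± 2.05 (SD, n = 3) in CON-LFD, 67.1% ± 3.95 (SD, n = 4) in DIO-HFD and 72.8% ± 0.942 (SD, n = 3) in DIO-LFD mice, with DIO-VSG mice at 72.5% ± 0.808 (SD, n = 4). Bmp8b, a BMP of thermogenic fat, had 8 tested promoter sites that averaged 25.2% ± 5.82 (SD, n = 4) in DIO-HFD mice, and DIO-VSG mice averaged 32.5% ± 0.835 (SD, n = 4) (M difference 0.52, SE 0.21, adjusted p = 0.158 by limma with Benjamini-Hochberg adjustment, and 0.00955 without DIO-HFD replicate 1). The promoters of Bmp2 and Bmp6 had M differences from DIO-HFD mice between -0.28 and 0.06. The 2 intronic sites of Bmp3, an atypical BMP, averaged at most 7.14% in every mouse but DIO-VSG replicate 3, at 33.3%.

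In the GDF ligands, Gdf1 and Gdf6 supplied the leading sites. Gdf1, a Nodal-related ligand at chr8:70329817-70331587 that is transcribed together with the ceramide synthase gene Cers1, had 16 tested sites. Over the 8 sites outside the promoter, CON-LFD mice averaged 70.9%, 66.8% and 69.2% and DIO-HFD mice 70.2%, 56.9%, 54.7% and 56.7%. DIO-LFD mice averaged 74.6%, 67.0% and 63.8% and DIO-VSG mice 70.6%, 66.6%, 68.8% and 70.8%. DIO-HFD replicate 1 lay within the range of the other groups and the other DIO-HFD mice lay below it. M differed by 0.57, 0.54 and 0.58 in CON-LFD, DIO-LFD and DIO-VSG mice. By limma with Benjamini-Hochberg adjustment the adjusted p was 0.590, 0.519 and 0.149 with all mice, and 0.0227, 0.0221 and 0.00518 without DIO-HFD replicate 1. One CpG island site in a coding exon, chr8:70330911, separated all groups from DIO-HFD mice. It had 71.9%, 66% and 65.5% in CON-LFD, 56.5%, 50%, 40.8% and 56.2% in DIO-HFD, 68.4%, 72% and 64.0% in DIO-LFD and 72.1%, 58.7%, 67.2% and 71.2% in DIO-VSG mice. Here DIO-HFD replicate 1 was low like the other DIO-HFD mice, and the M differences of 1.01, 1.03 and 0.98 had adjusted p-values of 0.611, 0.494 and 0.150 with all mice and of 0.0437, 0.0368 and 0.0163 when it was left out (limma with Benjamini-Hochberg adjustment).

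Gdf6, a GDF of joint and skeletal patterning, lies at chr4:9844372-9862345, but 10 of its 12 sites in the table are outside the gene, the farthest 321130 bp from its start, and such distant sites are tied to Gdf6 by position alone. The farthest one, chr4:10165500, had the smallest p of all member sites in 2 comparisons and was at 100% in all 4 DIO-VSG mice. Its surroundings are shown for that reason, chr4:10165282-10165516 on the + strand, with the 5 measured of 13 CpGs in capitals.
Gdf6 distal: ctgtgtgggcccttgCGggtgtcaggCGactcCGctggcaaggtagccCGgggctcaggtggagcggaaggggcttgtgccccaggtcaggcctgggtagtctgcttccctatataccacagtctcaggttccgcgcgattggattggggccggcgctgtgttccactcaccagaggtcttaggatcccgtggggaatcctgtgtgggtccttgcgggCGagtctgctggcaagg
At this site CON-LFD mice had 89.2%, 96.4% and 100%, DIO-HFD mice 88.9%, 92.9%, 71.4% and 85.3%, and DIO-LFD mice 78.5%, 88.7% and 60.0%. DIO-VSG mice overlapped neither DIO-HFD nor DIO-LFD mice. The M difference was 4.12 (SE 0.72, adjusted p = 0.150) from DIO-HFD and 4.90 (SE 0.78, adjusted p = 0.189) from DIO-LFD mice by limma with Benjamini-Hochberg adjustment. Averaged over the 5 measured CpGs, DIO-VSG mice had 96.4%, 87.2%, 98.3% and 98.0% and DIO-HFD mice 93.9%, 90.6%, 92.1% and 88.5%. The neighbours thus did not separate the groups, and DIO-VSG replicate 2 was the lowest of the 14 mice over the stretch. A second distant site within CCGG, chr4:10102200, had 83.3%, 79.4%, 81.8% and 73.9% in DIO-HFD, 87.9%, 96.4% and 90.1% in DIO-LFD and 92.1%, 94.1%, 95.5% and 89.3% in DIO-VSG mice. All mice of both weight loss groups lay above DIO-HFD mice, with M differences of 1.48 in DIO-LFD and 1.63 (SE 0.42) in DIO-VSG mice. The promoter of Gdf6 had M differences from DIO-HFD mice between -0.17 and 0.02. Its 2 promoter sites are the ends of one MspI fragment, whose levels summed to between 95.2% and 113% in every mouse. The left end alone ranged from 3.45% to 56.5% and the right end from 54.5% to 100%. Their average can therefore hide differences at single ends. For Gdf15, a stress-induced GDF, the 2 tested sites without the promoter flag lay outside the gene, between 13526 and 13586 bp upstream of its start. They too are tied to the gene by position alone. They averaged 23.6% ± 10.2 (SD, n = 4) in DIO-HFD mice, and DIO-VSG mice averaged 37.0% ± 2.39 (SD, n = 4) (M difference 0.97).

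The activin and inhibin subunits had 13 tested sites, 5 near Inhba and 8 near Inhbb. All 5 Inhba sites lay outside the gene, far upstream of its start, and averaged 86.9% ± 3.0 (SD, n = 3) in CON-LFD, 80.5% ± 7.36 (SD, n = 4) in DIO-HFD and 87.6% ± 1.38 (SD, n = 3) in DIO-LFD mice, with DIO-VSG mice at 88.2% ± 5.56 (SD, n = 4). Inhbb, which codes the beta B subunit of activin B and is expressed in adipocytes, averaged between 43.2% and 45.1% in the groups. At its intronic site chr1:119419226, singled out after its values were seen, the order was turned around. DIO-HFD mice had 13.7%, 26.0%, 28.6% and 25.0% and DIO-VSG mice 11.8%, 13.4%, 10.3% and 17.9% (M difference -0.92, SE 0.34). In the fit without DIO-HFD replicate 1, 1 Inhbb site was higher and 2 were lower in DIO-VSG mice at an adjusted p under 0.05. The share of all tested sites passing there in either direction was 34.4%.

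Among the receptors, Acvrl1 stood out. Acvrl1 codes ALK1, a type I receptor of endothelial cells that binds the BMP9 and BMP10 ligands, at chr15:101128522-101145336 on the + strand. A stretch of 3 CpGs lies 1002 to 904 bp upstream of the nearest transcript start and within an intron of a longer transcript. Of these, the 2 nearer the start have the promoter flag, and 1 of them was tested. The stretch is shown because the Acvrl1 promoter was among the 5 leading member gene regions in each comparison with DIO-HFD mice, at chr15:101133125-101133236, with its 3 CpGs, all measured, in capitals.
Acvrl1 promoter: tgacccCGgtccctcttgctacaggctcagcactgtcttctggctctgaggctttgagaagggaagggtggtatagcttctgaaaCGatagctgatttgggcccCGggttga
The 1 tested promoter site was at 63.6%, 64.9% and 57.1% in CON-LFD, 65.3%, 40.0%, 34.3% and 42.9% in DIO-HFD, 59.2%, 56.3% and 62.0% in DIO-LFD and 60.5%, 64.0%, 60.7% and 60.7% in DIO-VSG mice. DIO-HFD replicate 1 was the highest of the 14 mice and the other DIO-HFD mice the lowest. M differences were 0.94 (SE 0.34), 0.77 (SE 0.34) and 0.91 (SE 0.31). Without DIO-HFD replicate 1 the adjusted p by limma with Benjamini-Hochberg adjustment over gene regions was 0.0105, 0.0102 and 0.00127. With all mice it was 0.590, 0.519 and 0.139. The 3 tested sites of Acvrl1 without the promoter flag, among them the first CpG of the stretch, averaged 79.2%, 58.9%, 62.8% and 60.8% in DIO-HFD and 82.4%, 75.6%, 83.3% and 80.8% in DIO-VSG mice (M difference 1.07, SE 0.32, adjusted p = 0.138 by the same fit). At the BMP and activin type I receptors Bmpr1b, Acvr1 and Acvr1b and the type II receptors Bmpr2 and Acvr2b the picture was mixed. The 3 sites of Acvr1b outside the promoter averaged 55.8% ± 12.2 (SD, n = 4) in DIO-HFD mice, and DIO-VSG mice averaged 70.7% ± 1.61 (SD, n = 4) (M difference 0.88, SE 0.32). Its 4 promoter sites averaged between 48.8% and 49.3% in all 4 groups. They are both ends of MspI fragments, and the ends of each fragment summed to between 90% and 110% in every mouse. Single ends ranged from 29.5% to 69.6% over the mice. The average of these promoter sites thus varies little whatever each end does and cannot show a difference. At the promoter of Tgfbr2, the type II receptor of TGF-beta, DIO-VSG mice averaged 39.2% ± 7.02 (SD, n = 4) and DIO-HFD mice 49.2% ± 1.39 (SD, n = 4), an M difference of -0.58. These groups overlapped. The 2 Tgfbr2 promoter sites are also the ends of one MspI fragment. In DIO-VSG replicate 2, the lowest mouse at 30.8%, the ends were at 0% and 61.5%, with depth unknown.

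The Smads held 53 tested sites, 25 of them in Smad6, and Smad6 had stretches that departed in opposite directions. Smad6 codes an inhibitory Smad that mainly restrains BMP signaling, at chr9:63953076-64022059 on the - strand. At its intronic site chr9:63984869, singled out after its values were seen, CON-LFD mice were at 72.5%, 69.8% and 59.4%, DIO-HFD mice at 81.1%, 37.1%, 24.7% and 31.9%, DIO-LFD mice at 78.6%, 61.9% and 74.2% and DIO-VSG mice at 77.2%, 69.1%, 64.4% and 74.9%. The other stretch lies closer to the start, 6733 to 6854 bp into the gene, and is shown for the opposite order, at chr9:64015173-64015307 on the + strand, with its 3 CpGs, all measured, in capitals.
Smad6 intron: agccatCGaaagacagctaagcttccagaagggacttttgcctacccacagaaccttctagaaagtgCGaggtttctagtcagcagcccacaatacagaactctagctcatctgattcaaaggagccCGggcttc
Averaged over these 3 CpGs, CON-LFD mice had 46.2%, 50.7% and 67.6%, and DIO-HFD mice 37.1%, 74.6%, 73.0% and 72.9%. DIO-LFD mice had 40.7%, 55.0% and 53.6% and DIO-VSG mice 39.9%, 42.8%, 49.1% and 40.4%. In this stretch DIO-HFD replicate 1 was the lowest mouse and the other DIO-HFD mice were the highest. Between DIO-VSG and DIO-HFD mice the M difference of the 3 CpGs was -1.39 (SE 0.49), -1.60 and -1.14, against 1.64 at chr9:63984869. Without DIO-HFD replicate 1, 8 Smad6 sites were higher and 3 lower in DIO-VSG mice at an adjusted p under 0.05 (limma with Benjamini-Hochberg adjustment), and 6 were higher and 3 lower in DIO-LFD mice. The shares of all tested sites passing in either direction were 34.4% for DIO-VSG and 14.6% for DIO-LFD. Averaged over the 19 Smad6 sites outside the promoter, DIO-HFD mice had 55.1%, 46.9%, 45.0% and 48.6%, and the 10 mice of the other groups lay between 51.0% and 54.2%. DIO-HFD replicate 1 was thus the highest mouse and the other DIO-HFD mice the lowest, as in Ski and Ltbp3. The M difference was 0.18, 0.23 and 0.21 in CON-LFD, DIO-LFD and DIO-VSG mice. By limma with Benjamini-Hochberg adjustment the adjusted p was 0.662, 0.539 and 0.310 with all mice, and 0.0829, 0.0534 and 0.0289 without DIO-HFD replicate 1. The lines of levels along Ski, Ltbp3 and Smad6 show both stretches.

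**Figure D3:**
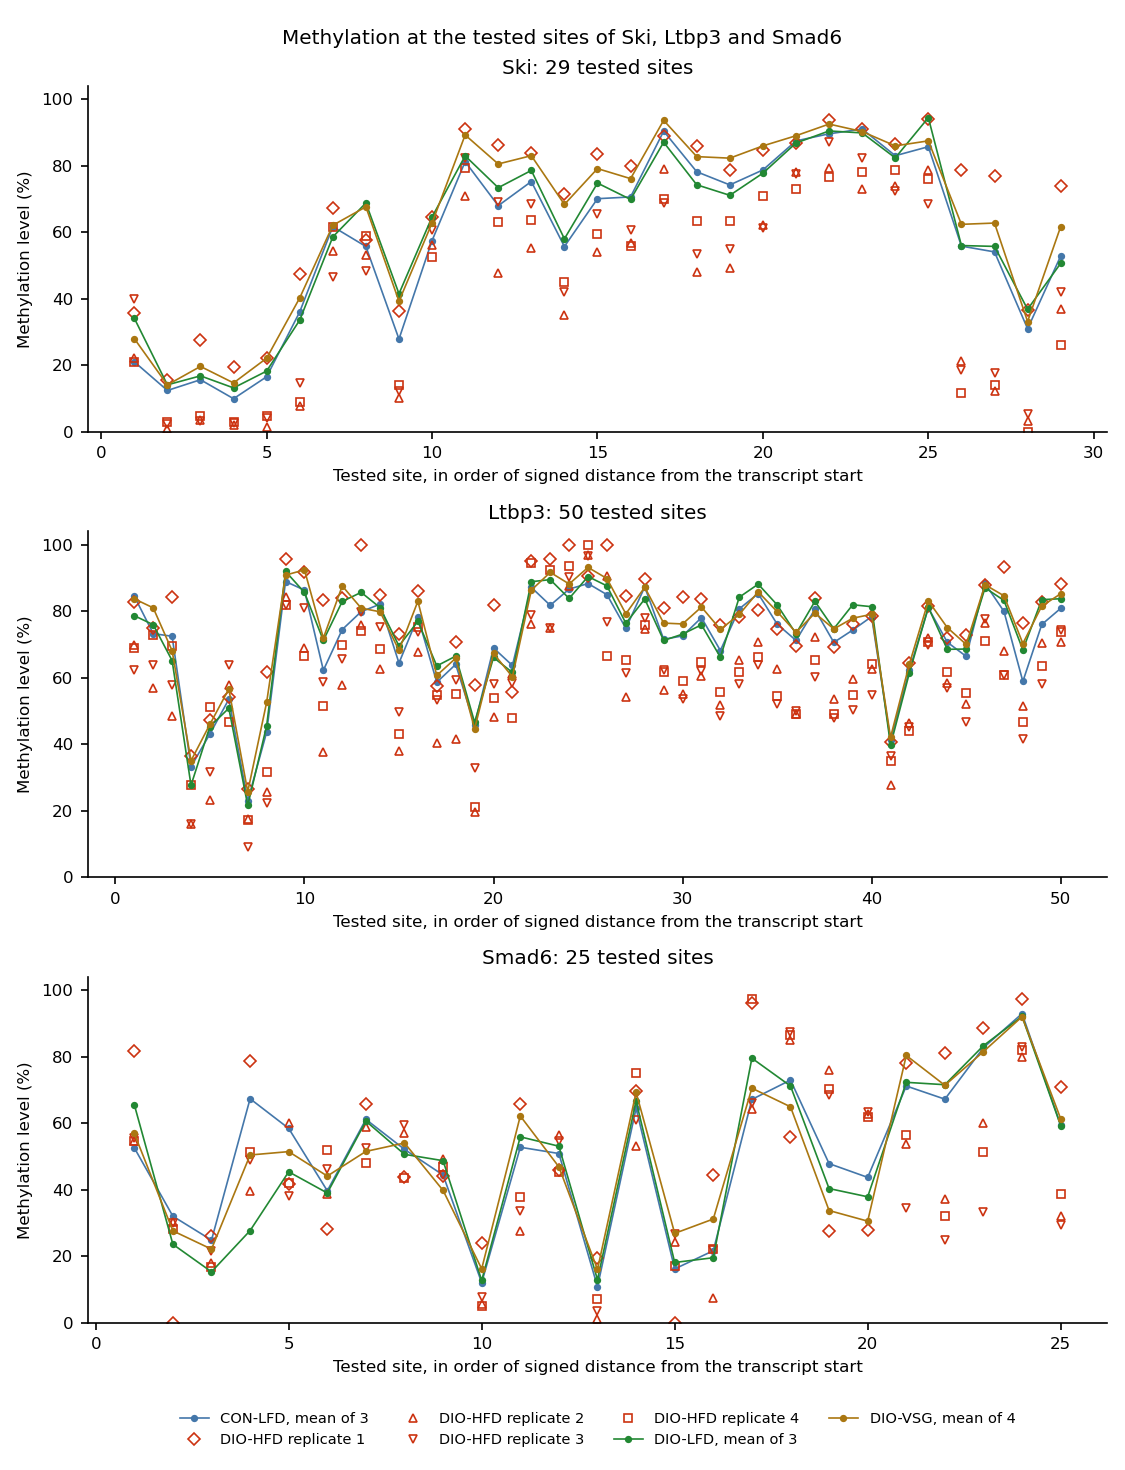
Methylation level (percent, vertical axis) at the tested sites of Ski (29), Ltbp3 (50) and Smad6 (25), placed in order of their signed distance from the transcript start, with the 4 DIO-HFD mice as separate red markers (replicate 1 as a diamond) and the means of CON-LFD, DIO-LFD and DIO-VSG mice as lines. The red markers of DIO-HFD replicates 2 to 4 lie below the lines at most sites of Ski and Ltbp3 and above them in 1 stretch of Smad6, and the diamonds follow the lines.

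Smad7, the inhibitory Smad that restrains TGF-beta receptors, had 7 tested sites outside its promoter that averaged 72.9%, 73.6% and 62.1% in CON-LFD, 80.1%, 60.8%, 58.4% and 57.4% in DIO-HFD, 73.9%, 62.1% and 65.9% in DIO-LFD and 77.5%, 74.1%, 75.2% and 76.1% in DIO-VSG mice. M differed from DIO-HFD mice by 0.31 in CON-LFD, 0.16 in DIO-LFD and 0.73 (SE 0.33) in DIO-VSG mice, and between DIO-VSG and DIO-LFD mice by 0.57 (SE 0.35). The Smad7 promoter averaged between 45.0% and 49.7% in the groups. Smad2 and Smad3, the receptor-regulated Smads of TGF-beta and activin, had promoters at 47.9% to 52.3% in all groups, with M differences from DIO-HFD mice between -0.15 and 0.19. The Smad2 promoter sites are both ends of MspI fragments. Single ends ranged from 0% to 95% over the mice, and the sums of the ends from 78.9% to 108%. The Smad2 average can therefore hide differences at single ends. The 1 promoter site of Smad1, the receptor-regulated Smad of BMPs, averaged 43.0% ± 2.91 (SD, n = 4) in DIO-HFD and 25.9% ± 24.0 (SD, n = 3) in DIO-LFD mice. That spread came from DIO-LFD replicate 3, which was at 0%. At the single tested site of Smad4 outside its promoter, the common partner of the other Smads, DIO-HFD mice were at 47.1%, 7.47%, 4.31% and 11.9% and DIO-VSG mice at 41.8%, 37.5%, 18% and 37.7% (M difference 1.64, SE 0.83). Here too DIO-HFD replicate 1 lay above the others of its group, and without it 1 tested site of Smad4 was higher in DIO-VSG mice at an adjusted p under 0.05 (limma with Benjamini-Hochberg adjustment) and 0 in the other groups. Of all tested sites, 34.4% passed for DIO-VSG in either direction.

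The antagonists Nog, Fst and Bmper had 11 tested sites, and in no group was one higher at an unadjusted p under 0.05 than in DIO-HFD mice. Of all tested sites, 6.00%, 7.92% and 20.2% were higher in CON-LFD, DIO-LFD and DIO-VSG mice. With so few sites, this count says little about the antagonists as a group. Bmper, a secreted modulator of BMPs in vessels, had 3 sites that were lower in DIO-VSG mice at this unadjusted threshold, as were 4.85% of all tested sites. Its 2 promoter sites averaged 41.3%, 34.1%, 34.6% and 41.7% in DIO-HFD and 1.63%, 17.7%, 16.9% and 21.8% in DIO-VSG mice. CON-LFD and DIO-LFD mice spread across both ranges there, with 17%, 38.5% and 14.7% and with 14.1%, 39.5% and 8.13%. The M difference between DIO-VSG and DIO-HFD mice was -2.16. With DIO-HFD replicate 1 left out, 0 antagonist sites passed an adjusted p of 0.05 in any comparison. For CON-LFD, DIO-LFD and DIO-VSG vs. DIO-HFD, 12.0%, 14.6% and 34.4% of all tested sites did. Nog, which codes Noggin, stayed between 47.2% and 50.9% at its promoter site in the group means.

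Among the intracellular regulators, Ski departed in 1 direction at nearly all its sites. Ski codes a repressor that binds Smads and blocks their transcription of target genes, at chr4:155154075-155222592 on the - strand. Of its 30 sites 21 are intronic. The M difference from DIO-HFD mice was positive at 26 of the 29 tested Ski sites in CON-LFD, at 29 in DIO-LFD and at 28 in DIO-VSG mice. The median differences in level were 7.35, 8.75 and 13.5 percentage points. At an unadjusted p under 0.05, 6, 8 and 19 of them were higher and 0 lower. Over the 28 sites outside the promoter, CON-LFD mice averaged 61.3%, 64.0% and 54.2%, DIO-HFD mice 69.0%, 43.7%, 47.5% and 46.3%, DIO-LFD mice 66.7%, 59.5% and 60.2% and DIO-VSG mice 65.9%, 65.1%, 65.1% and 67.1%. DIO-HFD replicate 1 was again the highest mouse and the other DIO-HFD mice the lowest. The M difference was 0.46, 0.60 and 0.82 (SE 0.29 for DIO-VSG). By limma with Benjamini-Hochberg adjustment the adjusted p was 0.623, 0.523 and 0.141 with all mice, and 0.0198, 0.0133 and 0.00139 without DIO-HFD replicate 1. Site by site, 11, 10 and 26 of the 29 were then higher at an adjusted p under 0.05, 9 of them in all 3 comparisons. Of all tested sites, 12.0%, 14.6% and 34.4% passed in either direction.

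The single tested promoter site of Ski, chr4:155221565 in a coding exon, was the leading gene region in each comparison with DIO-HFD mice. CON-LFD mice had 14.6%, 12.8% and 9.63% there, DIO-HFD mice 15.7%, 0.787%, 2.23% and 2.84%, DIO-LFD mice 14.4%, 13.9% and 13.8% and DIO-VSG mice 13%, 14.3%, 15.3% and 13.7%. DIO-HFD replicates 2 to 4 were thus nearly unmethylated. The M difference was 1.70 (SE 0.59), 1.91 (SE 0.59) and 1.91 (SE 0.54), with adjusted p-values over gene regions of 0.590, 0.516 and 0.138, and of 0.00874, 0.00436 and 0.000949 without DIO-HFD replicate 1 (limma with Benjamini-Hochberg adjustment). Farther in, 1974 to 2096 bp from the start, an intronic stretch holds 5 CpGs, all measured. It is shown, in capitals for these CpGs, because sites side by side in it differ in how far they depart, at chr4:155220434-155220569 on the + strand.
Ski intron: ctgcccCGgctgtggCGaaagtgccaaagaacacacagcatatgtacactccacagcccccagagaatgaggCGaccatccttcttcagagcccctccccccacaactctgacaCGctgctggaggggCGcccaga
At its CpG within CCGG, chr4:155220440, the 14 mice lay between 46.7% and 67.6% and DIO-VSG mice differed from DIO-HFD mice by only 0.26 in M (SE 0.31). At chr4:155220506, DIO-HFD mice had 22.1%, 1.39%, 4.01% and 4.64% and DIO-VSG mice 16.0%, 20.4%, 28.4% and 23.6% (M difference 2.08, SE 0.58). At chr4:155220449 the corresponding levels were 47.3%, 7.58%, 14.6% and 8.93% and 37.0%, 37.2%, 39.3% and 47.4% (M difference 1.76). These 3 sites were singled out after their values were seen. Averaged over the stretch, DIO-HFD mice had 36.7%, 13.7%, 14.2% and 16.5%, and the 10 mice of the other groups lay between 24.1% and 34.5%.

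Further into the same gene, at chr4:155217897, the level was 31.8%, 31.7% and 20% in CON-LFD, 36.4%, 10%, 12.3% and 13.9% in DIO-HFD, 43.5%, 45.5% and 35.5% in DIO-LFD and 40.4%, 36.4%, 48.0% and 32.1% in DIO-VSG mice. M differed by 1.79 (SE 0.49) in DIO-LFD and 1.65 (SE 0.46) in DIO-VSG mice. At the intronic CCGG site chr4:155213004, DIO-VSG mice had 92.2%, 97.1%, 93.0% and 92.3% and DIO-HFD mice 88.9%, 79.0%, 68.7% and 70.0% (M difference 1.99, SE 0.51). Skil, the paralog of Ski that codes SnoN, ran the other way at its 2 tested sites outside the promoter. They averaged 36.6%, 38.4% and 50.1% in CON-LFD, 35.2%, 52.0%, 47.9% and 56.2% in DIO-HFD, 46.8%, 51.9% and 51.1% in DIO-LFD and 36.5%, 38.1%, 38.1% and 33.8% in DIO-VSG mice. The M difference between DIO-VSG and DIO-HFD mice was -0.65 (SE 0.25). Its adjusted p by limma with Benjamini-Hochberg adjustment was 0.155 with all mice and 0.00658 without DIO-HFD replicate 1. The 2 promoter sites of Smurf1, a ubiquitin ligase that marks Smads and receptors for degradation, averaged between 48.0% and 50.6% in every mouse. They are the 2 ends of one MspI fragment, and their levels summed to between 95.9% and 101% in every mouse. Their average thus varies little whatever each end does and cannot show a difference. Neither site alone had an unadjusted p under 0.05 by limma in any comparison.

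The other matches of the names were Tgfbr3l, Tgfb1i1 and Bmp1. Tgfbr3l codes a protein related to the coreceptor TGFBR3, and the M difference from DIO-HFD mice was positive in all 3 groups at all 9 of its tested sites. One of them, in a coding exon and CpG island, was the member site with the smallest p between DIO-LFD and DIO-HFD mice. An annotated transcript of another gene, Gm49320, overlaps this site. At chr8:4249666 the levels were 82.4%, 72.6% and 73.5% in CON-LFD, 81.2%, 56.9%, 50.7% and 69.4% in DIO-HFD, 87.3%, 84.6% and 93.2% in DIO-LFD and 85.7%, 80%, 78.7% and 81% in DIO-VSG mice. All DIO-LFD mice lay above all DIO-HFD mice, and the M difference was 1.98 (SE 0.47, adjusted p = 0.494 by limma with Benjamini-Hochberg adjustment, and 0.00875 without DIO-HFD replicate 1). Over 7 measured CpGs of this exon, from 1410 to 1484 bp past the start, DIO-HFD mice averaged 90%, 70.7%, 68.4% and 74.0%, and DIO-LFD mice 89.2%, 82.8% and 87.9%, so that DIO-HFD replicate 1 was the highest mouse. Tgfb1i1, which codes the focal adhesion coactivator HIC-5, had 4 tested sites that averaged 77.0% ± 6.67 (SD, n = 4) in DIO-HFD mice, and DIO-VSG mice averaged 85.9% ± 1.83 (SD, n = 4) (M difference 0.78, SE 0.27). The leading sites of all comparisons are drawn by mouse in the panels of single sites.

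**Figure D4:**
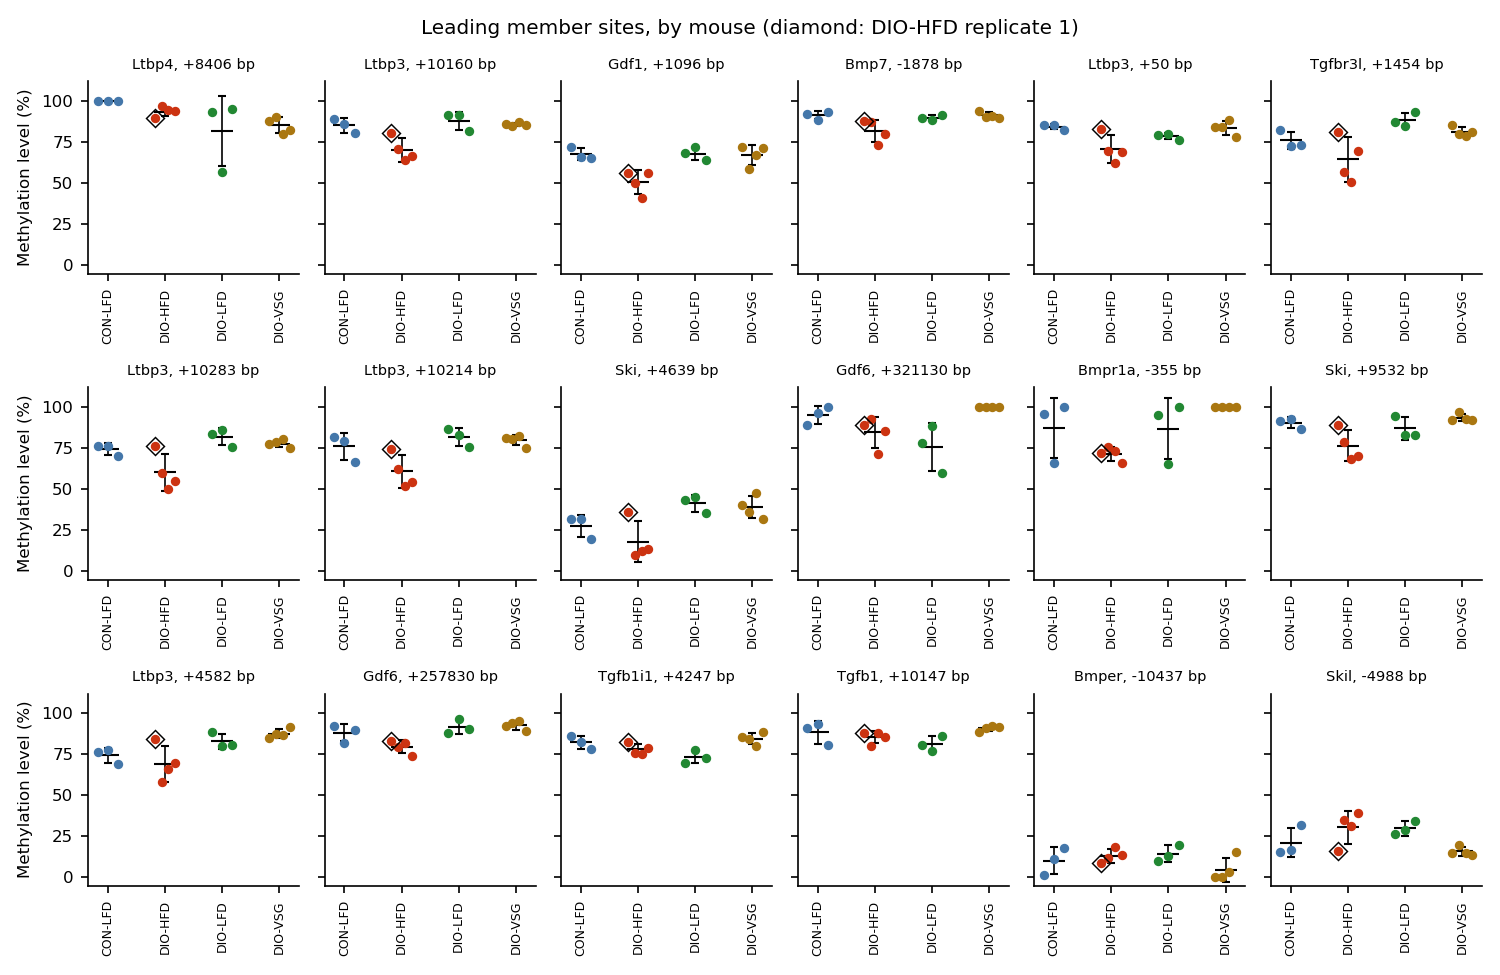
Methylation level (percent, vertical axis) of each mouse in the 4 groups at the 18 member sites with the smallest p in any comparison, 1 panel a site, with bars for the group mean ± SD and DIO-HFD replicate 1 as a diamond. DIO-HFD replicates 2 to 4 lie low in most panels and the diamond sits with the other groups in several panels and with the other DIO-HFD mice in others, such as Gdf1 chr8:70330911 and Bmpr1a chr14:34503041.

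In the promoter CpG islands of the members the group means lay within 43.4% to 44.5%, and single sites within CCGG gathered near 50%. Over the 71 tested sites with both flags, CON-LFD mice averaged 44.5% ± 1.62 (SD, n = 3), DIO-HFD mice 44.0% ± 1.70 (SD, n = 4), DIO-LFD mice 43.4% ± 1.15 (SD, n = 3) and DIO-VSG mice 43.9% ± 0.836 (SD, n = 4). Over the other 237 tested sites, CON-LFD mice averaged 65.7%, 65.1% and 61.3%, DIO-HFD mice 68.6%, 56%, 56.4% and 57.3%, DIO-LFD mice 67.3%, 62.9% and 64.4% and DIO-VSG mice 66.8%, 66.5%, 66.4% and 67.3%. At these other sites DIO-HFD replicate 1 was the highest mouse and the other DIO-HFD mice the lowest. The same held over all such tested sites of the table, where DIO-HFD mice averaged 69.2%, 59.7%, 59.8% and 60.0%. Of the island sites, 51 were within CCGG, and 34 of these (66.7%) had a mean level between 40% and 60%. These 51 averaged 49.3% in CON-LFD, 50.2% in DIO-HFD, 48.4% in DIO-LFD and 48.0% in DIO-VSG mice. The 20 island sites outside CCGG averaged 32.4% in CON-LFD mice, 28.4% in DIO-HFD mice, 30.6% in DIO-LFD mice and 33.4% in DIO-VSG mice. By group mean, DIO-HFD mice were thus the highest within CCGG and the lowest outside it, which the mean over all 71 does not show. By mouse they overlapped every other group within CCGG, at 48.4% to 51.6%. Outside it DIO-HFD replicate 1, at 32.3%, lay within the ranges of CON-LFD and DIO-LFD mice and below all DIO-VSG mice. This order of the means was not particular to the members. Over all tested promoter island sites of the table, DIO-HFD mice averaged 50.2% within CCGG and the other groups 49.2% to 49.5%. Outside CCGG they averaged 28.4% and the other groups 31.1% to 32.7%. The Ski promoter site and the Bmp8b promoter sites, described above, are island sites. In the whole table, 58.5% of tested promoter island sites within CCGG lay between 40% and 60%. Counting untested sites too, 12 member genes had at least 3 promoter island sites, and 9 of them averaged between 40% and 60% over the 14 mice. The lowest were Bmp8b, at 34.1% over 10 sites, and Bmp2, at 34.8% over 6 sites, and the highest was Skil, at 60.2% over 4 sites, followed by Acvr1b at 49.9% over 3 sites.

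Levels at both ends of one MspI fragment tended to add up to 100%. Where neighbouring CCGG sites of the members lay within 300 bp with no CCGG between them, the sum of their levels was between 90% and 110% in all 14 mice for 10 of 23 pairs (43.5%) in promoter CpG islands and for 8 of 25 (32.0%) elsewhere. The same held for 48.0% of 2165 such pairs in the promoter islands of the whole table and 20.2% of 4750 elsewhere. With 1 CCGG in between, 0 of 8 member pairs met it, as did 1.13% of 531 and 0.984% of 915 pairs in the table. This relation was noticed after the levels were seen, and its cause was not tested. Smurf1 is a clear example, at chr5:144965872-144966003, where capitals mark the 2 measured of 22 CpGs, at the CCGG ends.
Smurf1 fragment: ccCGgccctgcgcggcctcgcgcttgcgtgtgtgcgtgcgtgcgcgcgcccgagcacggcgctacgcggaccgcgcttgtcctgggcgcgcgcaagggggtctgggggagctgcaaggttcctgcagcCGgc
Across the 14 mice the left end of the Smurf1 fragment ranged from 40.4% to 61.8% and the right end from 35.0% to 55.6%, but their sum stayed between 95.9% and 101%. In Bmp7 the split was uneven, at chr2:172939079-172939322, with 3 of 20 CpGs measured and in capitals.
Bmp7 fragment: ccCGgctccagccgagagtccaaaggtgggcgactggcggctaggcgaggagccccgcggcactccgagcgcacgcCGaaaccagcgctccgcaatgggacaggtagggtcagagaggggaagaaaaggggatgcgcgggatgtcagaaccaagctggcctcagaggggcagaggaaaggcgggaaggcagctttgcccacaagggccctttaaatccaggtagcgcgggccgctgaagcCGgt
Its ends averaged 13.1% and 83.7%, and the measured CpG between them 7.45%. The inner CpG of the Bmp6 fragment averaged 10.8% and the 2 inner CpGs of the Ltbp2 fragment 2.62%, while the ends of those fragments lay between 40.7% and 59.5%. In these examples the CpGs inside a fragment were therefore much lower than the mean of its ends.

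The same relation held at Bmpr1a, the BMP type IA receptor that acts in adipocyte commitment, at chr14:34410734-34503341. One end of its promoter fragment was the member site with the second smallest p between DIO-VSG and DIO-HFD mice. The fragment is chr14:34502899-34503044, with the 2 measured of 18 CpGs in capitals.
Bmpr1a fragment: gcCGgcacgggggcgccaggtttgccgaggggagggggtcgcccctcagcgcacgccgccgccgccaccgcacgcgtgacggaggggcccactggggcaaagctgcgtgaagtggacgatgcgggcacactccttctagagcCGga
At the right end, chr14:34503041, all 4 DIO-VSG mice were at 100% and DIO-HFD mice at 72.1%, 75.7%, 73.1% and 65.7%. CON-LFD mice were at 95.7%, 66.3% and 100% and DIO-LFD mice at 95.2%, 65.5% and 100%, so each of these groups held 1 mouse at the level of DIO-HFD mice. The M difference between DIO-VSG and DIO-HFD mice was 5.34 (SE 1.15, adjusted p = 0.150 by limma with Benjamini-Hochberg adjustment), and the adjusted p was 0.000123 when these 2 groups alone were fitted. At the left end, chr14:34502901, the levels were mirrored, with 4.55%, 0%, 0% and 0% in DIO-VSG mice, 27.0%, 24.0%, 29.0% and 30.4% in DIO-HFD mice, 0%, 31.9% and 0% in CON-LFD mice and 0%, 32.1% and 0% in DIO-LFD mice. The sum of both ends stayed between 95.2% and 105%, and their average was 50.6% ± 1.14 (SD, n = 4) in DIO-VSG and 49.6% ± 1.23 (SD, n = 4) in DIO-HFD mice (M difference 0.05, SE 0.10). The difference at each end was thus not a difference of the fragment's mean level. Of the 25 tested ends of fragments with such sums, at an unadjusted p under 0.05 3 were higher and 2 lower in DIO-VSG than in DIO-HFD mice, and of the other 283 tested sites 81 were higher and 9 lower. At sites outside CCGG, which hold no fragment ends, 39.8% of 181 member sites had an unadjusted p under 0.05 for DIO-VSG, against 28.1% of all such sites.

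**Figure D5:**
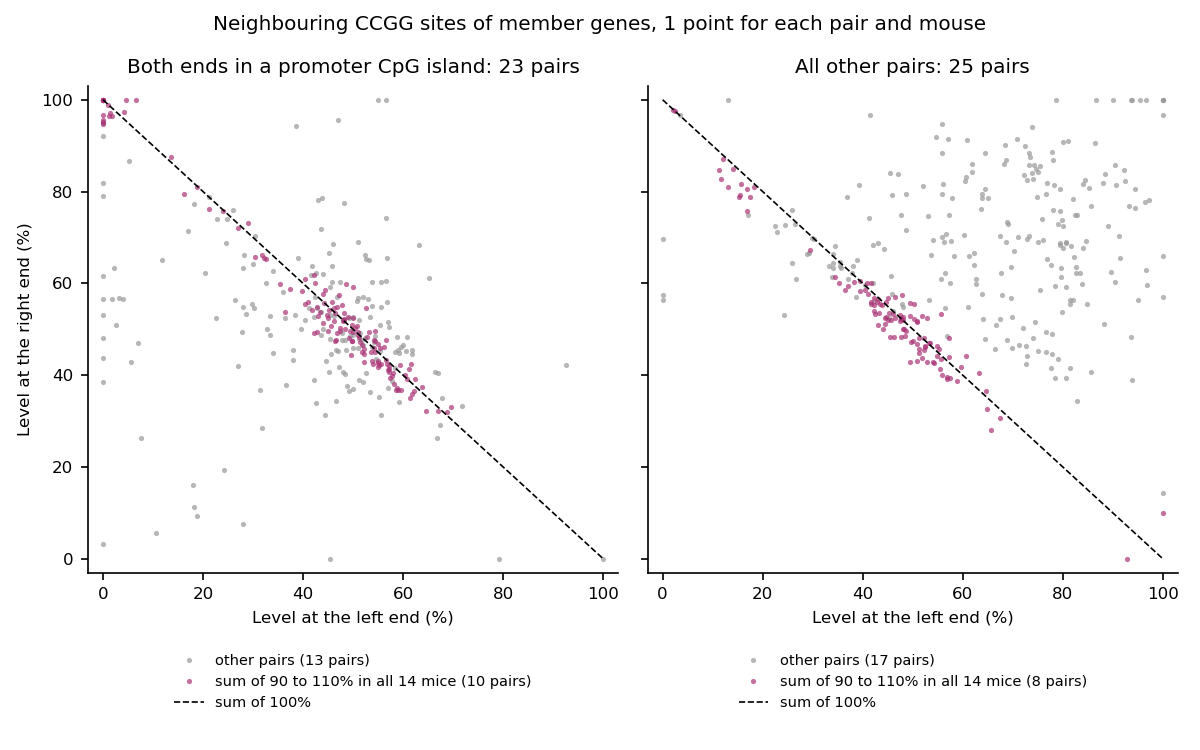
Level at the right end (percent, vertical axis) against the level at the left end (percent, horizontal axis) of MspI fragments of the member genes, 1 point for each fragment and mouse, for 23 fragments in promoter CpG islands and 25 elsewhere. Purple points belong to the 10 and 8 fragments whose ends summed to 90% to 110% in all 14 mice and follow the dashed line of a sum of 100%, and the other points scatter off it.

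Surgery was set against a change of diet alone by comparing DIO-VSG with DIO-LFD mice, with the spread estimated over all 4 groups. At an unadjusted p under 0.05, 10 member sites were higher in DIO-VSG mice (3.25%, against 2.42% of all tested sites) and 4 were lower (1.30%, against 1.55%), and 0 gene regions were higher and 2 lower (against 3.24% and 1.67% of all regions). Beside the distant Gdf6 site, the leading site was in a coding exon of Tgfb1i1, chr7:128253140, with 69.7%, 77.4% and 73.0% in DIO-LFD and 85.5%, 84.4%, 79.8% and 88.3% in DIO-VSG mice. These groups did not overlap (M difference 0.96, SE 0.32, adjusted p = 0.945 by limma with Benjamini-Hochberg adjustment). In a coding exon of Tgfb1, chr7:25697147, DIO-LFD mice had 80.8%, 77.0% and 86.1% and DIO-VSG mice 88.7%, 90.8%, 92.5% and 91.4% (M difference 1.1, SE 0.40), again without overlap. Upstream of Skil, at chr3:31090070, DIO-LFD mice had 26.2%, 28.7% and 34.6% and DIO-VSG mice 14.7%, 20%, 14.9% and 13.8% (M difference -1.13, SE 0.44). Upstream of Bmper, at chr9:23212639, DIO-LFD mice had 10%, 13.1% and 20% and DIO-VSG mice 0%, 0%, 3.45% and 15.4% (M difference -2.49, SE 0.96), a range that overlapped. Over gene regions the smallest p-values belonged to Skil outside the promoter (M difference -0.77, SE 0.27) and the 1 promoter site of Fst, which codes follistatin (M difference -0.51, SE 0.23). These were followed by the promoters of Smad1 (2.25, SE 1.15) and Gdf11 (-1.14, SE 0.62), where 1 DIO-LFD mouse stood apart, and Tgfb1i1 outside the promoter (0.52, SE 0.29). Without DIO-HFD replicate 1, which leaves these mice in place and changes only the spread, 0 member sites passed an adjusted p of 0.05 here.

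Other genes of the pathway that the names do not take had 322 sites at 36 genes, 285 of them tested. They were listed under 60 symbols, which include older and newer symbols of the same gene. At an unadjusted p under 0.05, 33 were higher (11.6%, against 6.00% of all tested sites) and 1 lower (0.351%, against 1.76%) in CON-LFD than in DIO-HFD mice. In DIO-LFD mice 33 were higher (11.6%, against 7.92%) and 2 lower (0.702%, against 2.16%), and in DIO-VSG mice 78 were higher (27.4%, against 20.2%) and 2 lower (0.702%, against 4.85%). No site passed an adjusted p of 0.05 (limma with Benjamini-Hochberg adjustment), and 46, 50 and 129 did without DIO-HFD replicate 1 (16.1%, 17.5% and 45.3%, against 12.0%, 14.6% and 34.4% of all tested sites). Snai1, a repressor of epithelial genes that TGF-beta induces, had 55.2%, 16.5%, 18.7% and 19.1% in DIO-HFD and 54.7%, 68.7%, 51.2% and 54.3% in DIO-VSG mice at the island site chr2:167538821, 628 bp from its start (M difference 1.94, SE 0.50). Pmepa1, a TGF-beta target that limits Smad signaling, had 98.0%, 100% and 92.9% in CON-LFD and 87.1%, 79.8%, 80.2% and 81.2% in DIO-HFD mice at the intronic site chr2:173269984 (M difference 2.93, SE 0.63, adjusted p = 0.611 by limma with Benjamini-Hochberg adjustment). At this Pmepa1 site DIO-HFD replicate 1 was on the side of the other DIO-HFD mice, and at the Snai1 site it was not. Furin, the protease that cleaves TGF-beta precursors, had 71.6%, 57.6%, 52.3% and 57.0% in DIO-HFD and 76.1%, 75.8%, 77.0% and 75.6% in DIO-VSG mice at chr7:80410160, upstream of its start (M difference 1.07, SE 0.28).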

How the data were processed

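Members, roles, the list of other pathway genes and the tests were chosen with earlier results of these data known. Groups came from the sample labels. The authors cut DNA with MspI, aligned bisulfite reads to mm10 with Bismark, used methylKit for the calls and left out 1 mouse of the CON-LFD and 1 of the DIO-LFD group, whose libraries were of poor quality. What the authors deposited is a fraction, the methylated share of reads at each site in each mouse, without read counts, with the nearest transcript and flags for promoters and CpG islands, whose annotation source is not given in the sources used here. Their methods name a removal of sites with an SD under 0.05, but the deposited table still holds such sites. 0 levels were missing. Depth is therefore unknown, and no interval was computed.

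Levels b of sites with an SD of at least 0.05 were transformed to M = log2((b + 0.01)/(1 − b + 0.01)) and fitted in 1 model of 4 groups with limma 3.58.1 (lmFit, contrasts.fit, eBayes) in R 4.3.3, with Benjamini-Hochberg adjustment over all 65610 sites and a threshold of 0.05. Gene regions are the mean levels of a gene's tested sites with the promoter flag or of its other sites, fitted likewise over 14163. Errors are SD over mice, or SE of the M difference. The fit was tested on simulated data. Named were sites past the threshold, the 5 member sites and the 5 gene regions with the smallest p per comparison, the 10 genes with the most tested sites, genes with at least 3 promoter island sites (the highest and lowest), and for other pathway genes the 2 sites with the smallest p per comparison, not all of which are given. The text says where other single sites were singled out after their values were seen. Further gene regions were named outside this rule. Among them are the promoters of Bmper and Tgfbr2 and the sites of Gdf15, Acvr1b and Smad4 outside promoters. Places and sequences were read from the mm10 genome and GENCODE M21 with pysam 0.24.0, and gene names from RefSeq. Tables and figures used Python 3.11.15, NumPy 2.4.6, pandas 2.3.3 and Matplotlib 3.10.9.

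Alternatives were an offset of 0.1, levels instead of M, eBayes with its trend and robust options, only the 2 groups compared, no SD filter or a minimum of 0.1, each mouse centred on its median M, the replicate number as a block, leaving out each mouse, at least 3 sites per gene region and genes weighted equally. Sites outside CCGG were chosen as an alternative after seeing the data. The transcriptome was not analysed here.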

Additional observations from a re-analysis of the deposited data

Results flagged for a closer look

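In 11 of 92 groups of 4 mice examined, the mouse at 1 end of the range was set off from its nearest neighbour by a gap that, as a share of the whole range of the group, was above Dixon's 95% critical value for 4 samples. Chance would give about 4.6 of 92 if the groups were independent. They are the same DIO-HFD and DIO-VSG mice at overlapping sites and gene regions, many named for a small p. The count of 11 can therefore not be set against 4.6. DIO-HFD replicate 1 was the mouse in 7 of the 11. It had the highest mean level over the member sites outside promoter CpG islands (68.6%, against 56% to 57.3% in the other DIO-HFD mice, gap 0.899), at Ltbp3 outside the promoter (78.7%, against 59.4% to 61.1%, gap 0.914), at the Ski promoter (15.7%, against 0.787% to 2.84%, gap 0.862), at Ski elsewhere (69.0%, against 43.7% to 47.5%, gap 0.85) and at Ski chr4:155217897 (36.4%, against 10% to 13.9%, gap 0.852). The same held for Gdf1 outside the promoter (70.2%, against 54.7% to 56.9%, gap 0.862) and Smad7 outside the promoter (80.1%, against 57.4% to 60.8%, gap 0.851). At the Smad1 promoter DIO-HFD replicate 2 stood apart (47.3%, gap 0.843). DIO-VSG replicate 2 stood apart from the other DIO-VSG mice at Ski chr4:155213004 (97.1%, against 92.2% to 93.0%, gap 0.843), at Skil chr3:31090070 (20%, against 13.8% to 14.9%, gap 0.833) and at the Acvrl1 promoter (64.0%, against 60.5% to 60.7%, gap 0.95).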

How the results depend on the processing

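With an adjusted p, the count of member sites for CON-LFD, DIO-LFD and DIO-VSG vs. DIO-HFD was 0 in each with all mice and ranged from 0 to 45, 0 to 57 and 0 to 121 when 1 mouse was left out, the upper ends without DIO-HFD replicate 1; fitting only DIO-VSG and DIO-HFD mice gave 3. At an unadjusted p the 33, 42, 95 and 14 member sites of the 4 comparisons (DIO-VSG vs. DIO-LFD last) became 9, 19, 29 and 6 with an SD of at least 0.1. They became 19 and 24 for CON-LFD and DIO-LFD with 2 groups, 63 for DIO-VSG with centred mice and 8 for DIO-VSG vs. DIO-LFD outside CCGG. Leaving out 1 mouse gave 14 to 111, 26 to 117, 47 to 154 and 9 to 31. The upper ends are without DIO-HFD replicate 1 in the first 3 and without DIO-LFD replicate 1 in the last. Counts moved by over 1.5 times also without CON-LFD replicates 1 (14) and 2 (20) and DIO-HFD replicates 3 (18) and 4 (14) for CON-LFD, DIO-HFD replicates 3 (26) and 4 (27) for DIO-LFD, DIO-HFD replicates 2 (53), 3 (49) and 4 (47) and DIO-VSG replicate 4 (63) for DIO-VSG, and DIO-VSG replicate 2 (9) for the last. The 5, 7, 18 and 2 gene regions became 2, 2 and 10 in the first 3 with an SD of at least 0.1, and 3, 4 and 0 in the first, the second and the last with at least 3 sites. Leaving out 1 mouse gave 1 to 19, 2 to 16, 8 to 25 and 1 to 6. Mean levels in promoter islands moved with the sites kept, to 47.1%, 48.7%, 44.7% and 45.3% (CON-LFD, DIO-HFD, DIO-LFD, DIO-VSG) with an SD of at least 0.1 and to 32.4%, 28.4%, 30.6% and 33.4% outside CCGG. With genes weighted equally they were 46.4% in DIO-HFD, 44.9% in DIO-LFD and 45.2% in DIO-VSG mice. Elsewhere they became 59.2%, 53.4%, 60.3% and 64.1% with an SD of at least 0.1, 60.6%, 60.6% and 63.1% in CON-LFD, DIO-LFD and DIO-VSG mice with genes weighted equally, and 64.4% in DIO-VSG mice without the filter. With the replicate number as a replicate block, counts were 0 adjusted in each comparison, 30, 36, 99 and 16 unadjusted and 4, 5, 22 and 2 gene regions. Same-numbered mice did not deviate together (19 pairs, r from -0.0804 to 0.202, 4 over 0.1), so the numbers do not pair them. Of 40 named results, 297 of 299 values under settings that keep all mice stayed on the same side of the threshold, and the Gdf6 site chr4:10165500 and the Bmpr1a site passed it in the fit of 2 groups; 532 of 560 values with 1 mouse left out did so, the other 28 passed it without DIO-HFD replicate 1, and 0 reversed. Beyond the settings themselves, the cause was not tested.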
